A study of Mus musculus with 71 samples.

Results

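The Zfp symbols name a large group of mouse zinc finger protein genes. Of 15140 genes in the deposited expression table, 203 had a symbol made of Zfp and a number, and 3 of these (the imprint-protecting KRAB protein Zfp57 and RNA-binding genes of the Zfp36 family) were left out. Of the 200 that remained, 180 had a level of at least 5 TPM, a unit corrected for transcript length and library size, in 2 or more libraries, and these 180 genes are the subject here. They were chosen on their TPM level, so their levels are described without a test. A gene low in some groups entered through those where it was high, so its changes between such groups partly follow from this choice. The second-highest TPM of the genes just inside the limit was 5.04 for Zfp697, 5.46 for Zfp493 and 5.7 for Zfp366, and that of the genes just outside it was 4.65 for Zfp354b, 4.46 for Zfp429 and 4.22 for Zfp456. The other 20 genes did not reach the limit and were not described further.

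Many proteins of this kind, though not all, bind DNA through tandem C2H2 zinc fingers, short loops that hold a zinc ion and each read a few bases. Many also carry a KRAB domain, which recruits Trim28 (KAP1) and through it the histone methyltransferase Setdb1 and heterochromatin proteins, and KRAB zinc finger proteins are best known for silencing transposable elements and for keeping imprinted marks. Their genes lie in clusters that grew by duplication, so that neighbours are often similar in sequence. In the growing oocyte, transcripts accumulate until the nucleus falls silent late in the germinal vesicle (GV) stage, and stored transcripts are used and degraded as the oocyte matures to metaphase II (MII).

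Poly(A)+ RNA was sequenced with strand-specific libraries from mouse cells of strain C57BL/6 X 129, and 68 libraries in 33 groups were used, 3 in each GV group and 2 in every other group. In vitro oocytes carried the reporters Blimp1-Venus and Stella-CFP and came from primordial germ cell-like cells aggregated with female gonadal somatic cells, sorted at day 11 or day 13 of culture, from wild type and from 19 knockouts, of Figla, Lhx8, Stat3 and Sub1 at day 11 and of Ccnk, Dynll1, Ell3, Foxr1, Hes6, Kdm1b, Mef2b, Nobox, Noto, Sfr1, Sohlh1, Tbpl2, Tcf25, Thap7 and Ybx3 at day 13. Directly induced oocyte-like cells (DIOLs) came from embryonic stem cells of the line MGA8, treated with Shield1, in a series named DIOLs.S at days 1, 3, 5, 7 and 14 and a series named DIOLs at days 5, 10, 15 and 25. The MII DIOL group was of the same line. The labels describe direct induction from stem cells alone and, for MII cells, growth in aggregates with female gonadal somatic cells before maturation. GV oocytes, competent or incompetent by their sample names, were taken from mice with the same reporters. The table's column names carry 3w for the competent and 2w for the incompetent oocytes. The labels do not say which genes MGA8 carries, what the S stands for and which of these cultures that series was, how GV competence was judged, or whether replicates came from separate cultures or animals, so the p-values measure the spread between these libraries, which may be technical.

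Depth is unknown in a TPM table. Each library had between 8011 and 10596 genes at 1 TPM or more. The targeted gene was in the table for 12 of the 19 knockouts, and it was lower in both knockout libraries than in both wild-type libraries for 11 of them. Ccnk itself was not (178 and 163 TPM in the libraries labelled Ccnk knockout, 164 and 172 in wild type), and Sub1 was at 345 and 316 TPM in its knockout against 448 and 481. Figla, Foxr1, Mef2b, Nobox, Noto, Tcf25 and Ybx3 were not analysed here as targets. Of 15 oocyte markers listed, 9 were in the table and all 9 were at 1 TPM or more in both wild-type groups. The 2 Sohlh1 knockout libraries stood apart from each other, with a correlation of 0.735 over the 180 genes, so values of both are given. The day 11 wild-type pair, shared by the day 11 comparisons, was next lowest, at 0.885. Fewer cells of one type and less RNA per cell cannot be told apart in bulk samples.

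The promoters shown are those of the genes called lower in 6 to 8 of the 19 knockout comparisons, more than any other Zfp gene, whose levels are described further on. Each sequence is the 250 bases before the gene's start in RefSeq, build GRCm38.p6, read 5′ to 3′ on the gene's strand. Capitals mark the E-box CANNTG, the element bound by basic helix-loop-helix factors such as Figla and Sohlh1, and the homeobox elements TAATTG and TAATTA, of the kind bound by Nobox and Lhx8, searched on both strands. Zfp707 had no entry in the promoter table.
Zfp957 (chr14:79247368-79247617, minus strand): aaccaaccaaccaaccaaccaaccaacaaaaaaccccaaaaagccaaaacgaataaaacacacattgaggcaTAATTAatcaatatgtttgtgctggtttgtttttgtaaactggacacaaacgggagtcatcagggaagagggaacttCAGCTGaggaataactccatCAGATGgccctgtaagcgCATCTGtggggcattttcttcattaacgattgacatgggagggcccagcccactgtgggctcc
Zfp58 (chr13:67500523-67500772, minus strand): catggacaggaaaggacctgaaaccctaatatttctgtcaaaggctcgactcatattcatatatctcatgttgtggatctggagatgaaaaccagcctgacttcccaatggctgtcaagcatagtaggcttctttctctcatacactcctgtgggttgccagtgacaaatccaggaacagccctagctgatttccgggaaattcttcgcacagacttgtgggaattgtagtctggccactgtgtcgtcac
Zfp763 (chr17:33033382-33033631, minus strand): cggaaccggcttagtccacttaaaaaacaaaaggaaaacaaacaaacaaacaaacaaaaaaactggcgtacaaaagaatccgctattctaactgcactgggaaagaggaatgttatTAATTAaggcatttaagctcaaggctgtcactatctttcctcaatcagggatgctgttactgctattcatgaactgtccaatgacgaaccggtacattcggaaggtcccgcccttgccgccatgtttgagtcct
Zfp931 (chr2:178078426-178078675, minus strand): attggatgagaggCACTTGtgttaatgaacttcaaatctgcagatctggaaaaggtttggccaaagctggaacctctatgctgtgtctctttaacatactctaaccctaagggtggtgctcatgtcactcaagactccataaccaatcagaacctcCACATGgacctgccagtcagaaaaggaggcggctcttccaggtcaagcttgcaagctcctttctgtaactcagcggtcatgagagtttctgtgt
Zfp618 (chr4:62965317-62965566, plus strand): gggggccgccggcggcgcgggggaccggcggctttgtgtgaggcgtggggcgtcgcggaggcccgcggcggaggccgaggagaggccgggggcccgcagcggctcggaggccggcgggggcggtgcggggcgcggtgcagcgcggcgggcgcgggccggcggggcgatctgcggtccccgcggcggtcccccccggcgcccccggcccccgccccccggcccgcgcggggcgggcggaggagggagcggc
The Zfp957 window held 3 E-boxes and 1 TAATTA, the Zfp931 window 2 E-boxes and the Zfp763 window 1 TAATTA, and the windows of Zfp58 and Zfp618 held none of the searched letters. Of 32851 promoters of this length, 66.2% held an E-box, 7.17% TAATTG and 4.84% TAATTA. Of 175 promoters of the 139 Zfp genes matched by symbol, 60.0% held an E-box, 4.0% TAATTG and 8.0% TAATTA. A match is a description of letters and not a binding site.

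A KRAB signature was found in the proteins of 85 of the 180 genes, with a median of 12 C2H2 fingers and at most 30. It was absent from 91, with a median of 7 and at most 36, and 4 genes had no protein in the annotation. The signature is a match to a short pattern of residues, so genes counted as without it may still carry a KRAB domain. By chromosome, 41 of the genes were on chromosome 17, 32 on 13 and 20 on 11. Neighbours at most 300 kb apart formed 8 clusters of at least 3 genes holding 64 of them, and the largest were 18 genes on chr13:67038596-67827002, 16 with the KRAB signature, 15 on chr17:21383748-22456689, all with it, and 13 on chr17:32765496-33631779, 11 with it (mm10). Genes named as a and b copies (Zfp955a and Zfp955b, Zfp729a and Zfp729b, Zfp119a and Zfp119b, Zfp874a and Zfp874b), whose sequences were not compared here, other similar neighbours, the read-through row Zfp91Cntf, the antisense row Zfp652os and the processed pseudogene Zfp389 have uncertain levels, because how reads shared between copies or strands were counted is not given in the sources used here.

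In TPM, the genes with a KRAB signature were lower than those without it in all 33 groups. Their median was 4.43 TPM against 16.4 in day 13 wild type, 7.41 against 24.4 in day 11 wild type, 4.96 against 14.9 in incompetent GV oocytes and 2.06 against 6.22 in MII DIOL. The 10 genes with the highest mean levels all lacked it. Zfp664 ranged from 62.3 to 621 TPM over the 68 libraries with a median of 140.2, and its highest library was MII DIOL. Zfp207 (BuGZ, a spindle and kinetochore protein) ranged from 56.4 to 229 with a median of 116. Zfp598, a ubiquitin ligase that acts on collided ribosomes, ranged from 48.0 to 303. Zfp622, a factor of ribosome maturation, ranged far more widely, from 1.74 in a competent GV library to 201 in a Stat3 knockout library, and Zfp414 from 1.8 in MII DIOL to 213 in a Sohlh1 knockout library.

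The summed TPM of the 180 genes was lowest in DIOLs.S day 14, at 2457 and 2496, and highest in the Figla knockout, at 5321 and 5329. As a share of all TPM in the rows held, the sums ran from 0.371% in DIOLs.S day 14 to 0.811% in DIOLs.S day 5. Wild-type day 11 (3803 and 4022) lay above wild-type day 13 (3270 and 3311). By the group with the highest mean, 106 of the 180 genes (58.9%) peaked in a knockout, against 56.0% of the 10640 genes of the whole table that meet the same level limit, 19 (10.6%) in MII DIOL against 11.4%, and 18 (10.0%) in a GV group against 11.4%.

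**Figure D1:**
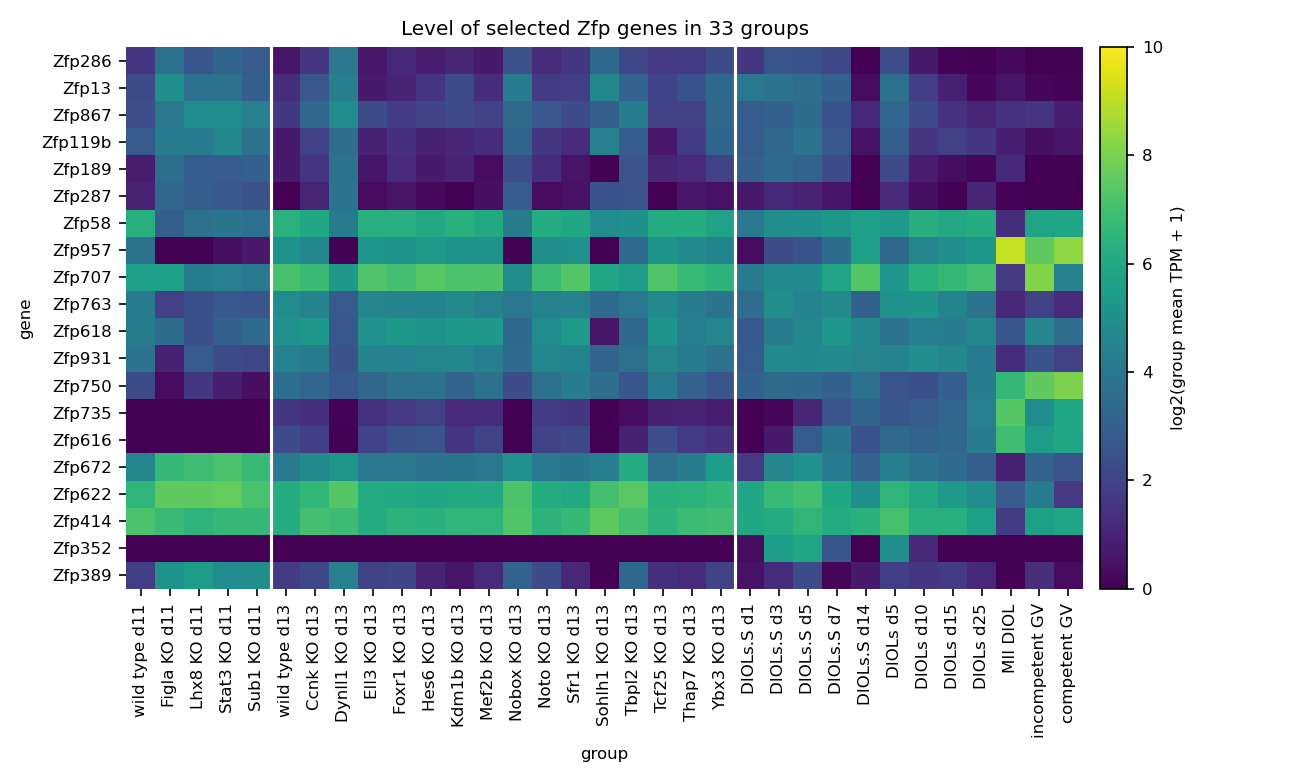
Heat map of the Zfp genes called in the largest numbers of knockouts or with the widest range of group means, in rows, over the 33 groups, in columns. The colour gives log2 of the group's mean TPM + 1, and Zfp957, with the widest range, runs from 0 in several knockouts to its highest level in MII DIOL.

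Between day 11 and day 13 in wild type, 6 Zfp genes rose and 28 fell of 179 tested. A gene is called where limma's Benjamini-Hochberg adjusted p is under 0.05 and the change is at least 1 in log2(TPM + 1), a scale that understates the change of low genes. Of all 12306 genes tested, 5.50% rose and 16.5% fell, so the Zfp shares of 3.35% and 15.6% were near or under the background. After rescaling each library to the median of ratios, which moved the scale of this comparison by -0.44 in log2, the split was 13 higher and 14 lower, against 9.42% and 11.1% of all genes rescaled in the same way. Zfp952 rose from 7.5 and 2.35 to 22.7 and 18.8 TPM (log2 change 2.02 ± 0.34 SE, adjusted p = 2.8e-05). Zfp707 rose from 44.2 and 53.2 to 125 and 142 TPM (1.44 ± 0.13, adjusted p = 1.4e-09). The libraries of the 2 days did not overlap for either gene, and both carry the KRAB signature. Zfp957 was at 17.1 and 8.43 TPM at day 11 and at 30.2 and 36.5 at day 13, but its call was lost with a pseudocount of 0.1 (adjusted p = 0.12) and without the second day 11 library (log2 change 0.92). Among the genes that fell, Zfp641 went from 8.93 and 9.87 to 0.39 and 0 TPM (-3.14 ± 0.61, adjusted p = 0.00017). Zfp52 fell from 7.59 and 4.52 to 0.18 and 0.41 (adjusted p = 5.4e-06), and Zfp362 from 29.0 and 46.1 to 9.62 and 6.35 (adjusted p = 1.9e-05). The summed TPM of the 16 gonadal somatic markers in the table went from 1420–1482 at day 11 to 45.8–47.7 at day 13, and its part in these changes was not tested.

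Each knockout was compared with wild type of the same day. The sample titles of the Figla and Sohlh1 knockouts carry the prefix IVD, which those of wild type and the other knockouts lack. If it marks a separate set of samples, that cannot be told apart from the knockout. The day 11 comparisons share 2 wild-type libraries and the day 13 comparisons share 2 others, so counts over knockouts are not independent of each other. In most knockouts with many calls, Zfp genes were more often higher than lower, as were the genes of the whole table.

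**Figure D2:**
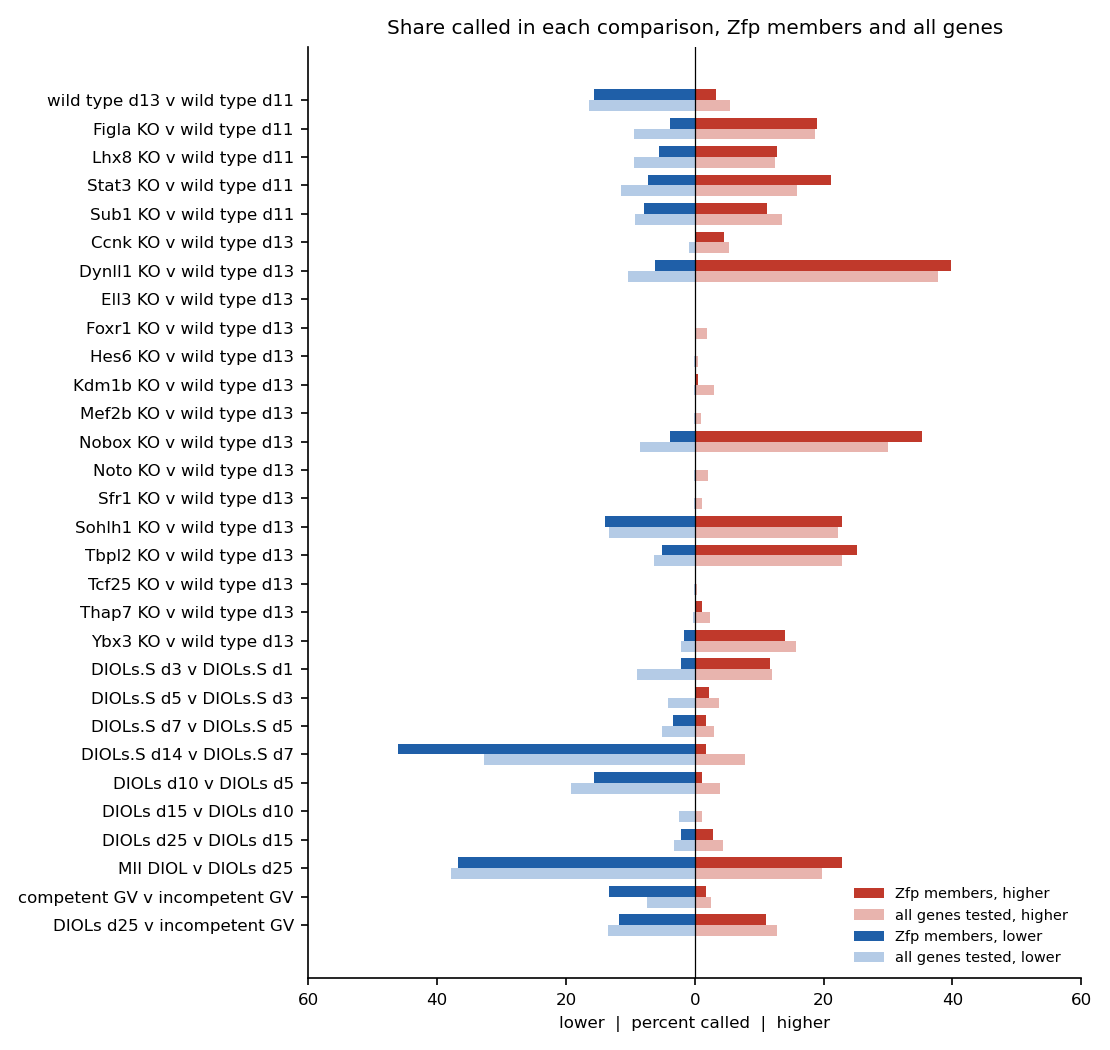
Percent of Zfp genes and percent of all genes tested that were called higher or lower in each comparison. The Zfp genes follow the table as a whole in most comparisons, with 39.7% higher in the Dynll1 knockout against 37.7% of all genes and 46.1% lower in DIOLs.S at day 14 against 32.8%.

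At day 11, 34 Zfp genes were higher and 7 lower in the Figla knockout, where 18.6% of all genes were higher and 9.52% lower. Rescaling (a shift of 0.26) gave 13 and 9, against 13.0% and 12.0% of all genes. In the Lhx8 knockout 23 were higher and 10 lower, against 12.4% and 9.47% of all genes. Rescaling (0.05) gave 19 and 10, against 11.1% and 9.91%. In the Stat3 knockout 38 were higher and 13 lower, against 15.8% and 11.5%, and 27 and 15 after rescaling (0.16), against 12.5% and 13.2%. In the Sub1 knockout 20 were higher and 14 lower, against 13.5% and 9.26%, and 15 and 15 after rescaling (0.11), against 11.4% and 10.4%. The Zfp shares were 19.0%, 12.8%, 21.2% and 11.2% higher and 3.91%, 5.59%, 7.26% and 7.82% lower in these 4 knockouts in turn. Without the first day 11 wild-type library the Figla count of lower genes was 11, and without the second the Lhx8 count was 16. The oocyte markers summed to 9104–9210 TPM in day 11 wild type and to 1365–2457 in these 4 knockouts, and the gonadal somatic markers to 1420–1482 against 1202–1214 in the Figla, 1940–1946 in the Lhx8, 1239–1267 in the Stat3 and 1045–1090 in the Sub1 knockout. The blood and macrophage markers summed to 27.9–45.2 TPM in wild type, 456–470 in the Figla, 400–431 in the Lhx8, 43.9–51.1 in the Stat3 and 3066–3131 in the Sub1 knockout. Their part in the Zfp counts was not tested.

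At day 13 the Dynll1 knockout had the most Zfp calls, 71 higher and 11 lower, against 37.7% and 10.4% of all genes, and 44 and 19 after rescaling (0.65), against 24.4% and 17.5%. In the Nobox knockout 63 were higher and 7 lower, against 30.0% and 8.50%, and 34 and 16 after rescaling (0.58), against 18.5% and 13.8%. In the Tbpl2 knockout 45 were higher and 9 lower, against 22.8% and 6.35%, and 29 and 17 after rescaling (0.44), against 15.5% and 11.4%. The Ybx3 knockout had 25 higher and 3 lower, against 15.7% and 2.21%, and 16 and 8 after rescaling (0.34), against 12.1% and 5.44%. In the Sohlh1 knockout 41 were higher and 25 lower, against 22.3% and 13.4%, and 32 and 34 after rescaling (0.36), against 17.3% and 17.8%. Leaving out the first Sohlh1 library gave 44 higher and 41 lower, and leaving out the second gave 49 and 20. These 2 libraries also differed in blood and macrophage markers, which summed to 117 TPM in one and 3625 in the other against 68.9–86.0 in wild type, and in stromal and endothelial markers, at 212 to 2261 against 13.0–18.8, and their part in the counts was not tested. The libraries labelled Ccnk knockout had 8 higher and 0 lower, against 5.23% and 0.910%, and 5 and 0 after rescaling (0.30), against 3.08% and 1.92%. The Zfp shares higher in the Dynll1 and Nobox knockouts, 39.7% and 35.2%, lay beside 39.6% and 32.8% of the genes that meet the same level limit. Oocyte markers summed to 55510–56827 TPM in day 13 wild type, 2589–2621 in the Dynll1, 2697–2747 in the Nobox, 1563–2172 in the Sohlh1, 11719–11844 in the Tbpl2 and 31569–32055 in the Ybx3 knockout. Gonadal somatic markers summed to 45.8–47.7 TPM in wild type and to 448–476, 866–902, 197–428, 1091–1168 and 1609–1647 in the same 5 knockouts, and their part in the counts was not tested.

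In the other 9 day 13 knockouts few or no Zfp genes passed. Zfp174 alone was called in the Kdm1b knockout (7.01 and 6.45 TPM against 2.98 and 2.32, log2 change 1.09 ± 0.24 SE, adjusted p = 0.0043), where 3.19% of all genes were called, and the call was lost without the second wild-type library. Zfp286 and Zfp13 were called higher in the Thap7 knockout, where 2.74% of all genes were called, and neither held in every fit that left out a library. These 3 genes were named after their values were seen. None was called by limma in the Ell3 (0.114% of all genes called), Foxr1 (1.88%), Hes6 (0.593%), Mef2b (1.08%), Noto (2.23%), Sfr1 (1.24%) or Tcf25 (0.504%) knockout. At an unadjusted p under 0.05 there were 14, 13, 15, 10, 16, 13 and 23 Zfp genes of 179 in these 7 in turn, against 7.87%, 15.3%, 12.5%, 10.5%, 14.3%, 15.3% and 15.5% of all genes, and the Zfp shares ran from 5.59% to 12.8%, each under that of all genes. With a pseudocount of 0.1 the counts were 2 in Foxr1, 2 in Noto, 1 in Sfr1 and 0 in the other 4.

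The genes called lower in the largest number of the 19 knockout comparisons were Zfp957 and Zfp58, in 8 each, Zfp707 and Zfp763, in 7 each, and Zfp618 and Zfp931, in 6 each. For Zfp957, wild-type libraries held 17.1 and 8.43 TPM at day 11 and 30.2 and 36.5 at day 13. It was listed at 0 in both libraries of the Figla, Lhx8, Dynll1 and Sohlh1 knockouts, at 0 and 0.68 in Stat3, 1.18 and 0 in Sub1, and 0.06 and 0 in Nobox. In the Tbpl2 knockout it was at 10.9 and 8.59. All these libraries lay below both wild-type libraries of their day. The limma adjusted p was 8e-11 for Figla, 5.3e-14 for Dynll1, 9.7e-14 for Sohlh1 and 2.9e-05 for Tbpl2, the last of which became 0.052 with a pseudocount of 0.1. Its protein in the annotation, of 567 residues, matched no C2H2 finger of the pattern searched.

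Zfp58, a KRAB gene of the large chromosome 13 cluster (chr13:67490167-67500555, minus strand, 14 fingers), was at 84.2 and 67.6 TPM in day 11 and 88.5 and 77.5 in day 13 wild type. It fell to 8.17 and 6.13 in the Figla knockout (log2 change -3.24 ± 0.33 SE, adjusted p = 7.9e-09) and to 14.2 and 9.32 in Lhx8, 15.7 and 10.9 in Stat3 and 18.1 and 4.8 in Sub1. At day 13 it fell to 14.1 and 17.4 in Dynll1, 16.9 and 16.1 in Nobox and 34.9 and 27.5 in Tbpl2 (-1.39 ± 0.33, adjusted p = 0.00093). In each of these knockouts both libraries were below both wild-type libraries. Zfp707, a KRAB gene on chromosome 15 with 7 fingers, fell from 125 and 142 TPM in day 13 wild type to 27.7 and 31.1 in Nobox (-2.14 ± 0.13, adjusted p = 2.2e-13) and 42.7 and 48.9 in Tbpl2 (-1.52 ± 0.13, adjusted p = 3.5e-10).

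Zfp763 and Zfp931, both with the KRAB signature, were lower in all 4 day 11 knockouts. In the Figla knockout Zfp763 fell from 16.0 and 17.6 to 1.83 and 3.61 TPM (log2 change -2.30 ± 0.36 SE) and Zfp931 from 13.7 and 12.6 to 1.35 and 0.42 (-2.95 ± 0.33). Both were also lower in the Dynll1 knockout, where Zfp763 was at 6.16 and 5.99 TPM against 28.6 and 25.4, and Zfp931 at 3.51 and 5.78 against 24.1 and 16.5. Zfp763 was called lower in the Ybx3 knockout too, at 8.41 and 17.6 TPM, but this call was lost in 3 of the fits that left out a library. Zfp618, which has 4 fingers and no KRAB signature, was at 29.5 and 34.2 TPM in day 13 wild type and at 1.0 and 0 in the Sohlh1 knockout (adjusted p = 4.9e-13). It was at 5.98 and 5.01 in Dynll1, 8.34 and 10.2 in Nobox and 6.71 and 12.2 in Tbpl2, with adjusted p of 6e-08, 1.3e-05 and 1.6e-05, and below wild type in both libraries of each.

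The genes called higher in the largest number of the 19 knockout comparisons, Zfp286 in 11 and Zfp13 and Zfp867 in 10 each, were low in wild type. Zfp286 and Zfp13 were under 5 TPM in all wild-type libraries, and Zfp867 was at 6.18 in the first day 11 library and under 5 in the others. So these genes entered the set through other groups. Their rises over wild type partly follow from that choice. Zfp286 was at 0.76 and 0.17 TPM in day 13 wild type and at 18.7 and 10.5 in the Dynll1 knockout (log2 change 3.39 ± 0.35 SE, adjusted p = 5.2e-09). Zfp13 rose from 2.0 and 0.96 to 26.0 and 20.9 in Sohlh1 (3.33 ± 0.33, adjusted p = 4.2e-09) and to 13.5 and 18.2 in Nobox (2.78 ± 0.33). At day 11 Zfp13 rose from 2.87 and 4.74 to 30.3 and 30.1 in Figla (2.73 ± 0.33, adjusted p = 1.9e-07). Knockout and wild-type libraries did not overlap in any of these. Zfp867, a KRAB gene, rose from 1.76 and 2.38 TPM to 28.1 and 28.7 in Dynll1 (3.27 ± 0.33) and to 17.2 and 18.2 in Tbpl2 (2.61 ± 0.33). It was also higher in the libraries labelled Ccnk knockout, at 8.69 and 8.91 (adjusted p = 0.00076).

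Zfp672 was already at a middling level in day 11 wild type. From 22.1 and 24.2 TPM in wild type it rose to 139 and 141 in Stat3 (log2 change 2.54 ± 0.28 SE, adjusted p = 2.7e-08), 122 and 124 in Lhx8 (2.35 ± 0.28) and 101 and 112 in Sub1 (2.15 ± 0.28). Zfp189 was at 1.44 and 0 TPM in day 11 wild type and between 5.4 and 15.0 in the 4 knockouts, with adjusted p from 8.3e-07 in Figla to 3.3e-05 in Lhx8. Zfp318 rose in Sub1 from 23.0 and 22.9 to 70.1 and 74.8 (1.61 ± 0.15). In the Dynll1 knockout at day 13, Zfp219 rose from 8.96 and 8.66 to 101 and 110.0 TPM (3.44 ± 0.21, adjusted p = 1.3e-13) and Zfp462 from 0.14 and 0 to 12.3 and 12.2 (adjusted p = 1.1e-10). In the Nobox knockout Zfp174 rose from 2.98 and 2.32 to 20.9 and 19.8 (2.55 ± 0.24). In the Ybx3 knockout Zfp641 was at 18.1 and 13.5 against 0.39 and 0 (adjusted p = 2.2e-05). Zfp189, Zfp462, Zfp174 and Zfp641 were under 5 TPM in the wild-type libraries they were set against. Their rises may therefore partly follow from the choice of genes.

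In the Sohlh1 knockout, Zfp677 was at 12.6 and 15.7 TPM against 0.29 and 0.09 in wild type (adjusted p = 1.5e-08), and Zfp644 fell from 131 and 136 to 31.2 and 20.0 (log2 change -2.37 ± 0.12 SE). Other calls there rested on 1 library. Zfp472 was at 21.4 and 0 TPM against 31.4 and 26.0, and Zfp334 at 11.7 and 0 against 18.2 and 19.5, and both calls were lost without the second Sohlh1 library.

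**Figure D3:**
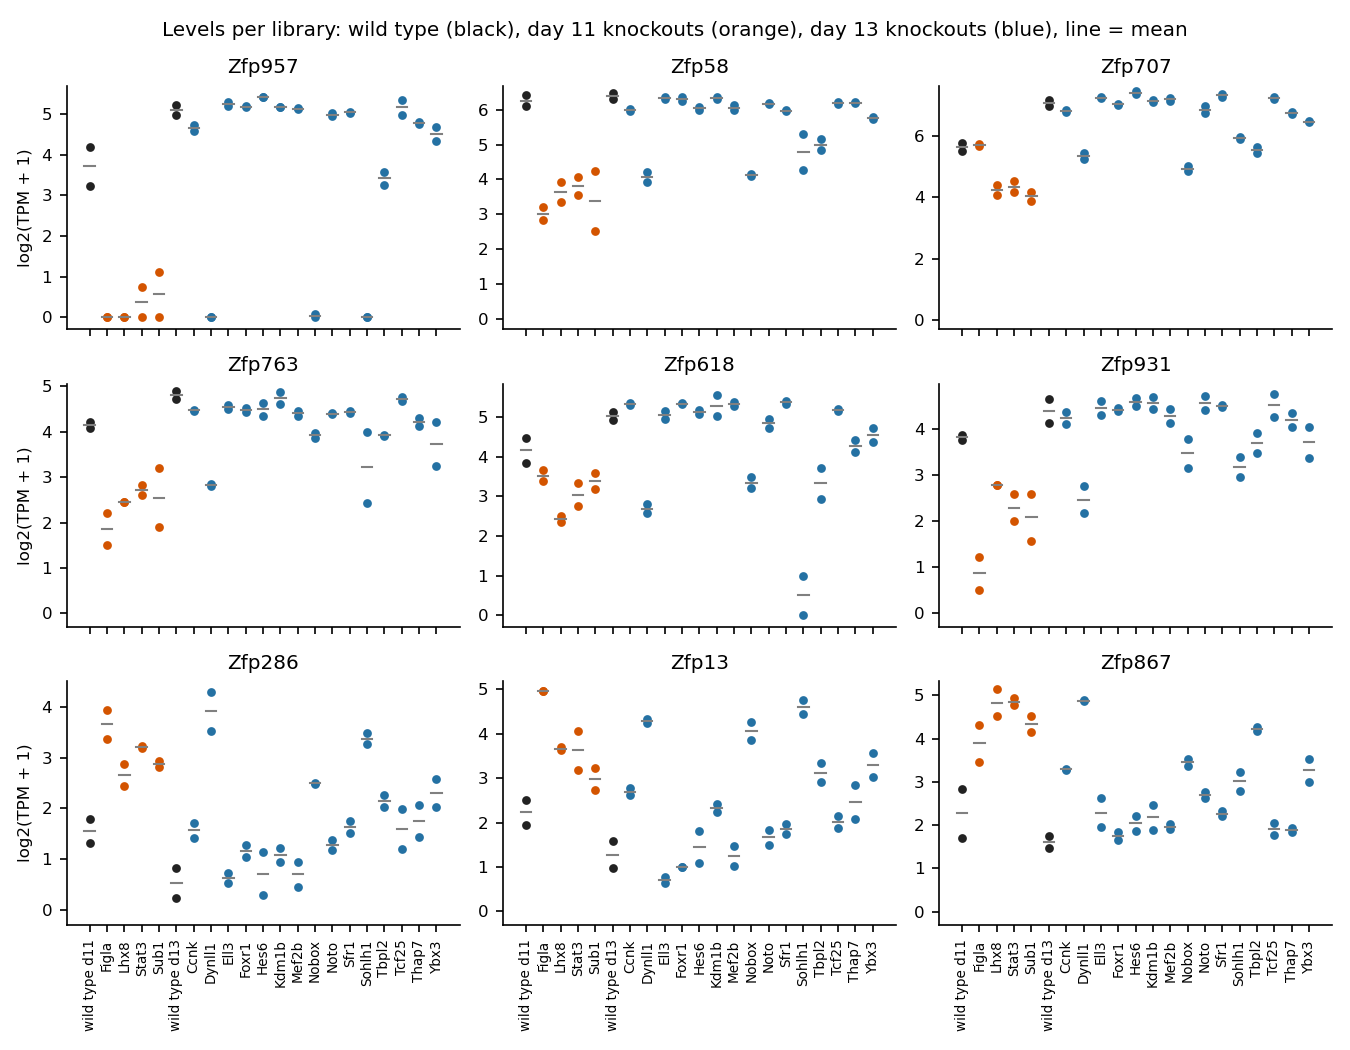
Level as log2(TPM + 1) of 9 Zfp genes in each library of wild type (black), day 11 knockouts (orange) and day 13 knockouts (blue), with the group mean as a line. Zfp957 is at 0 in both libraries of the Figla, Lhx8, Dynll1 and Sohlh1 knockouts, and Zfp867 rises to 28.1 and 28.7 TPM in Dynll1.

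By KRAB signature, the lower genes of the day 11 knockouts were 6 with and 1 without it in Figla, 6 and 4 in Lhx8, 9 and 4 in Stat3 and 11 and 3 in Sub1, while the higher genes were 10 and 21, 7 and 13, 18 and 17, and 8 and 11. Of all genes, 9.52%, 9.47%, 11.5% and 9.26% were lower and 18.6%, 12.4%, 15.8% and 13.5% higher in these 4 in turn. At day 13 the higher genes were 31 with and 38 without it in Dynll1 and 30 and 33 in Nobox. They were 16 and 28 in Tbpl2 and 24 and 17 in Sohlh1. The lower genes were 8 and 3, 5 and 2, 6 and 3, and 17 and 7 in the same 4 knockouts. Of all genes, 37.7%, 30.0%, 22.8% and 22.3% were higher there and 10.4%, 8.50%, 6.35% and 13.4% lower. The groups were of 85 and 91 genes, and the difference between them was not tested. By position, the 5 genes at chr11:50811086-51072799, 4 of them with the signature, included 4 that were higher in the Dynll1 knockout (median log2 change 2.04) and 4 in the Nobox knockout (1.59), where 37.7% and 30.0% of all genes were higher. All 5 were under 5 TPM in both day 13 wild-type libraries, so these rises partly follow from the choice of genes. Of the 8 clusters this one had the highest median in both knockouts. The other medians ran from -0.22 to 1.56 in Dynll1 and from -0.07 to 1.37 in Nobox. In the chromosome 13 cluster of 18, 8 were higher and 1, Zfp58, was lower in the Dynll1 knockout (median 1.16), against 37.7% and 10.4% of all genes.

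In the DIOLs.S series, 21 Zfp genes rose and 4 fell from day 1 to day 3, of 180 tested, against 11.9% and 9.00% of the 11603 genes tested. Zfp352, a gene known for its expression in cleavage-stage embryos, was at 0 and 0.53 TPM on day 1 and at 59.3 and 33.5 on day 3 (adjusted p = 3e-06). Zfp352 reached 5 TPM in only 7 libraries, so its changes in this and later comparisons partly follow from the choice of genes. Zfp672 rose from 2.74 and 1.6 to 23.1 and 21.9 (log2 change 2.91 ± 0.18 SE, adjusted p = 6.4e-11). The KRAB gene Zfp931 rose from 4.45 and 7.92 to 30.7 and 21.2 (1.93 ± 0.23), and Zfp7 fell from 81.6 and 88.4 to 33.4 and 36.2 (-1.27 ± 0.20). None of these genes' day 1 and day 3 libraries overlapped. From day 1 to day 3 the pluripotent stem cell markers went from 1325–1424 to 377–381 TPM, the blood and macrophage markers from 436–449 to 48.4–53.2 and the oocyte markers from 720–835 to 4703–4988, and their part in the Zfp counts was not tested.

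From day 3 to day 5, 4 Zfp genes were called, all higher (Zfp616, Zfp389, Zfp366 and Zfp758), against 7.95% of all genes called in either direction. Zfp616 rose from 0.6 and 0.58 to 5.84 and 6.32 TPM (log2 change 2.15 ± 0.21 SE) and its call was kept after rescaling, when 1 gene was called in all, while 9 were called without the first day 3 library and 9 without the second day 5 library. From day 5 to day 7, 3 rose and 6 fell, against 2.96% and 5.09%, and rescaling gave 4 and 4, against 2.86% and 4.05%. Zfp735, a KRAB gene, rose from 0.98 and 1.27 to 4.24 and 6.36 (1.55 ± 0.18, adjusted p = 4.1e-06). Zfp352 fell from 94.3 and 25.6 to 0 and 10.7 (adjusted p = 0.00033), and its libraries did not overlap although replicates of both days differed widely.

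The largest change of the DIOLs.S series came from day 7 to day 14, when 83 of the 180 genes fell and 3 rose. Of all genes, 32.8% fell and 7.78% rose, and of the 10453 tested genes that meet the same level limit, 35.4% fell, against 46.1% of the Zfp genes. Rescaling, a shift of -0.50 in log2, gave 55 lower and 12 higher, against 21.7% and 14.3% of all genes. The median change of the Zfp genes was -0.95, against -0.51 over all genes. The genes that rose were Zfp957, from 10.2 and 10.7 to 40.7 and 56.8 TPM (log2 change 2.10 ± 0.28 SE, adjusted p = 1.5e-06), Zfp707, from 48.0 and 65.3 to 163 and 164 (1.53 ± 0.21, adjusted p = 1.9e-06), and Zfp873, from 8.79 and 7.03 to 16.0 and 21.1, whose change dropped under 1 without the second library of either day. Among those that fell, Zfp41 went from 19.7 and 10.7 to 0.24 and 1.61 (-3.11 ± 0.30). Zfp251 fell from 27.5 and 28.6 to 2.14 and 4.22 (-2.84 ± 0.22) and Zfp13 from 9.22 and 5.83 to 0 and 0.42. Of the 83, 34 had the KRAB signature and 48 did not. The 2 day 7 libraries differed in gonadal somatic markers, which summed to 602 in one and 2488 in the other and to 56.5–88.4 on day 14. Both day 7 libraries lay above both day 14 libraries in these markers, and the part of this in the counts was not tested.

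In the DIOLs series, 28 Zfp genes fell and 2 rose from day 5 to day 10, against 19.2% and 3.92% of all genes, and 14 and 5 after rescaling (-0.30), against 13.1% and 5.45%. Over these days stromal and endothelial markers went from 374–380.5 to 9.2–15.1 TPM and blood and macrophage markers from 631–655 to 60.2–63.3, and their part in the counts was not tested. The 2 that rose were again Zfp957, from 8.85 and 10.2 to 20.2 and 25.3 TPM (log2 change 1.17 ± 0.28 SE, adjusted p = 0.0016), and Zfp707, from 38.5 and 35.6 to 74.6 and 84.2, whose change was 0.99 without the second day 10 library. Zfp352 fell from 29.2 and 30.9 to 1.53 and 0.94 (-3.81 ± 0.68), and Zfp521, a transcription factor of progenitor cells, from 14.6 and 15.4 to 2.07 and 1.73 (-2.47 ± 0.19). From day 10 to day 15 no Zfp gene was called by limma, against 3.64% of all genes, although 44 (24.4%) had an unadjusted p under 0.05, against 31.0% of all genes, and 2 were called with a pseudocount of 0.1. From day 15 to day 25, 5 rose and 4 fell, against 4.38% and 3.19%. Zfp735 rose from 8.99 and 8.08 to 18.8 and 19.7 (1.09 ± 0.18), Zfp503 from 1.92 and 0.94 to 5.45 and 6.76 (1.57 ± 0.32), and Zfp64 fell from 8.38 and 6.83 to 2.97 and 1.63 (-1.41 ± 0.21). With a pseudocount of 0.1 this comparison had 16 calls.

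**Figure D4:**
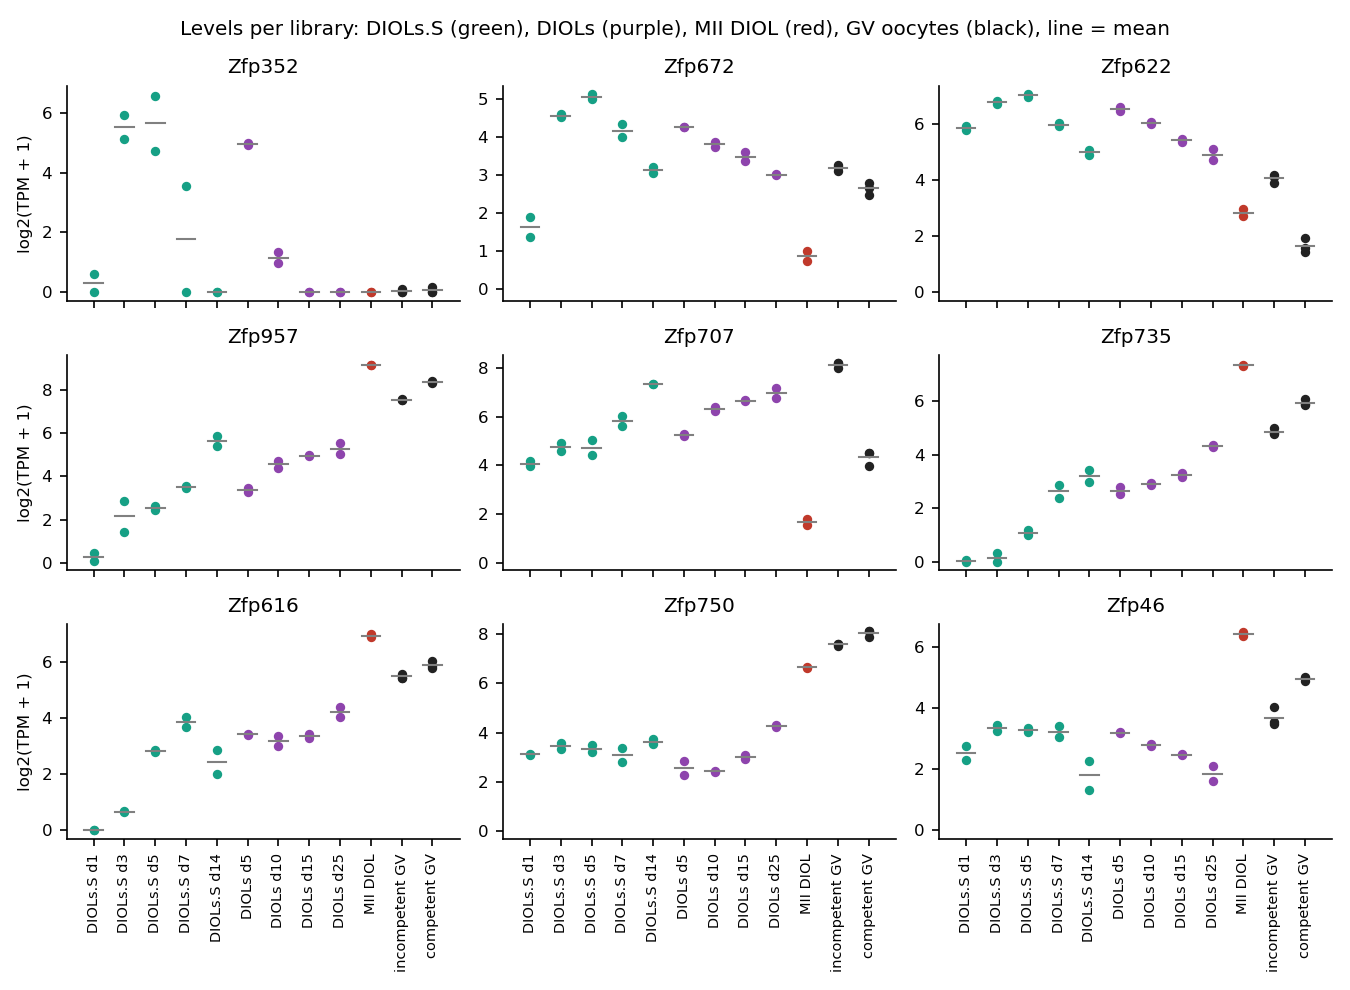
Level as log2(TPM + 1) of 9 Zfp genes in each library of the DIOLs.S series (green), the DIOLs series (purple), MII DIOL (red) and GV oocytes (black), with the group mean as a line. Zfp707 and Zfp957 climb to 163–164 and 40.7–56.8 TPM at DIOLs.S day 14, and Zfp352 is high at days 3 and 5.

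MII DIOL differed from DIOLs day 25 in 107 Zfp genes, 41 higher and 66 lower, against 19.8% and 37.8% of all genes. Rescaling, which moved the scale by -0.98 in log2, turned the split to 57 higher and 48 lower, and that of all genes to 30.8% and 28.3%. By the labels, MII cells grew in aggregates with female gonadal somatic cells. If the day 25 cells did not, maturation and culture cannot be told apart. Several genes were far higher in MII DIOL than in DIOLs day 25. Zfp957 was at 555 and 561 TPM against 45.7 and 31.5 (log2 change 3.84 ± 0.28 SE, adjusted p = 7.1e-11). The KRAB gene Zfp46 was at 89.8 and 82.0 against 2.02 and 3.26 (4.60 ± 0.25), Zfp735 at 164 and 161 against 18.8 and 19.7 (3.01 ± 0.18), and Zfp616 at 125 and 116 against 15.4 and 20.1 (2.71 ± 0.21). Libraries of the 2 groups did not overlap for any of these. Zfp664, the gene with the highest mean level, was at 621 and 605 against 135 and 141.

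On the other side, Zfp707 was at 2.49 and 1.9 TPM in MII DIOL against 146 and 108 (log2 change -5.32 ± 0.21 SE, adjusted p = 2.4e-15). Zfp58 was at 1.84 and 1.1 against 69.8 and 73.5 (-4.89 ± 0.14), Zfp414 at 1.8 and 2.86 against 53.0 and 50.0 (-4.00 ± 0.12), and Zfp263 at 1.06 and 1.37 against 34.7 and 32.6 (-3.97 ± 0.17). Zfp957, Zfp58 and Zfp707 were all lower than wild type in the Nobox and Tbpl2 knockouts. In MII DIOL they differed, as Zfp957 was high and the other 2 were low. By position, 9 of the 15 genes of the first chromosome 17 cluster were higher in MII DIOL and 3 lower (median log2 change 1.04), with Zfp760, Zfp229 and Zfp52 up. In the second chromosome 17 cluster of 13 genes none was higher and 7 were lower (median -1.68), among them Zfp414, Zfp952, Zfp870 and Zfp763. Of all genes 19.8% were higher and 37.8% lower, and the clusters were not tested against them. Gonadal somatic markers summed to 565–1050 TPM in MII DIOL and to 29.6–34.5 in DIOLs day 25, and this was not tested against the counts.

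Between the GV groups, 24 Zfp genes were lower and 3 higher in competent than in incompetent oocytes, 13.3% and 1.67% of the 180, against 7.42% and 2.54% of all genes and 8.14% and 2.67% of those that meet the same level limit. The median change of the 180 was -0.03. Competence and what the 3w and 2w of the column names stand for, which reads as the age of the mice in weeks, cannot be told apart. Zfp707 was at 21.8, 14.6 and 21.9 TPM against 294, 295 and 256 (log2 change -3.81 ± 0.17 SE, adjusted p = 1.9e-12), a KRAB gene with its highest levels of all groups in incompetent GV oocytes. Zfp395 was at 2.59, 3.04 and 3.64 against 48.8, 40.3 and 35.8 (-3.38 ± 0.12). Zfp622, the ribosome maturation factor, was at 1.74, 2.01 and 2.79 against 17.3, 16.4 and 14.0 (-2.42 ± 0.12), and Zfp281, a transcription factor of pluripotent cells, at 1.76, 1.73 and 1.63 against 12.9, 13.4 and 14.1 (-2.41 ± 0.10). In each, all 3 competent libraries were below all 3 incompetent ones.

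The 3 genes that were higher in competent GV oocytes all carry the KRAB signature. Zfp46 was at 28.7, 31.7 and 30.9 TPM against 15.4, 10.2 and 10.7 (log2 change 1.29 ± 0.21 SE, adjusted p = 3.8e-05). Zfp735 was at 58.0, 67.0 and 58.6 against 26.5, 27.6 and 30.8 (1.09 ± 0.15). Zfp69 was at 20.1, 19.2 and 20.3 against 9.41, 8.06 and 10.0, a change of 1.04 ± 0.19 that dropped to 0.96 without the second incompetent library. Zfp957 was at 335, 324 and 311 TPM in competent and 184, 182 and 188 in incompetent oocytes, a difference under the size needed for a call. Of the 24 lower genes 7 had the signature and 15 did not. Gonadal somatic markers summed to 73.9–81.9 TPM in incompetent and 87.8–189 in competent oocytes, and their part in the counts was not tested.

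**Figure D5:**
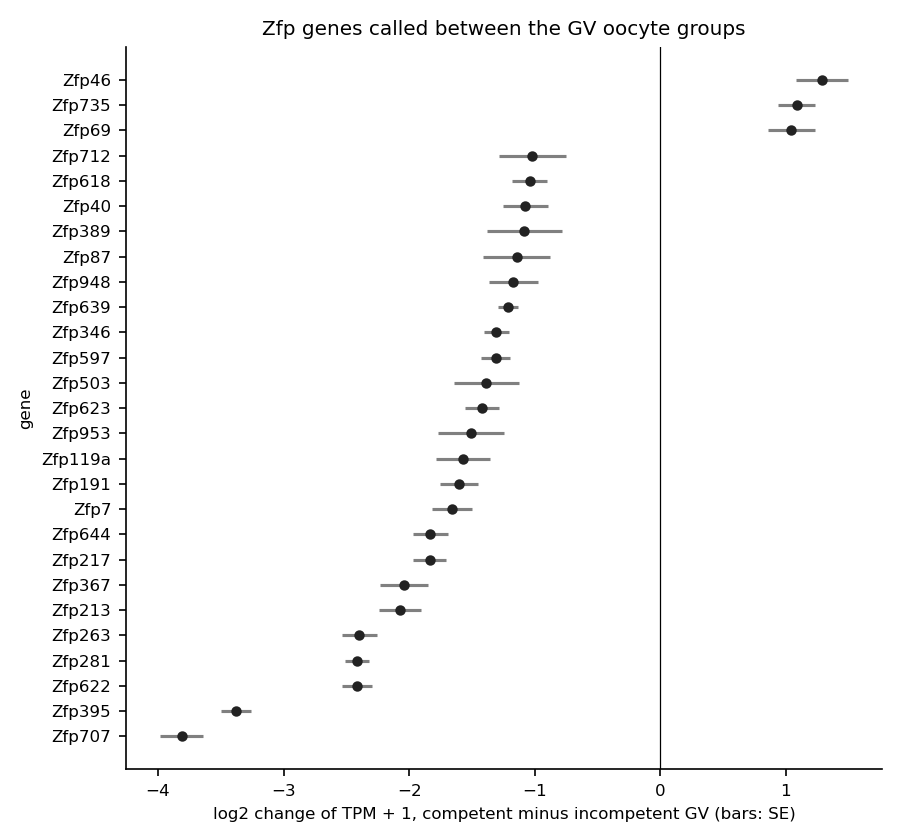
Change in log2(TPM + 1), competent minus incompetent GV oocytes, for the 27 Zfp genes called, with SE as bars. The 3 genes above 0 are Zfp46, Zfp735 and Zfp69, and the lowest is Zfp707 at -3.81.

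Set against incompetent GV oocytes, DIOLs day 25 had 20 Zfp genes higher and 21 lower, against 12.8% and 13.5% of all genes, which is close to the Zfp shares of 11.1% and 11.7%. This comparison shares its libraries with both the MII DIOL and the GV comparisons. By KRAB signature, 16 of the higher genes had it and 4 did not, while 6 of the lower genes had it and 15 did not, a difference that was not tested. Zfp362 was at 22.6 and 24.9 TPM in DIOLs against 0.64, 0.42 and 0.58 (log2 change 4.00 ± 0.18 SE, adjusted p = 7.9e-13). The KRAB genes Zfp947 (9.24 and 11.4 against 0.8, 0.52 and 0.56) and Zfp871 (6.41 and 4.89 against 0.51, 0.39 and 0.15) were also higher, by 2.80 ± 0.20 and 2.30 ± 0.18. Zfp750, known as a regulator of epidermal differentiation, was at 17.5 and 18.8 against 190, 182 and 192 (-3.30 ± 0.16, adjusted p = 1.9e-12). Zfp957 was at 45.7 and 31.5 against 184, 182 and 188 (-2.26 ± 0.25), and Zfp280b at 61.9 and 53.6 against 196, 199 and 180 (-1.72 ± 0.08). Libraries did not overlap in any of these.

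Of 38 genes listed for the repression pathway that KRAB proteins act through, 28 were in the table. In the Dynll1 knockout 15 were higher and 3 lower, where 37.7% and 10.4% of all genes were, and in the Stat3 knockout 9 were higher and 2 lower, where 15.8% and 11.5% were. Setdb1, the histone methyltransferase recruited by Trim28, was at 425 ± 5.16 (SD, n = 2) TPM in Stat3 against 119 ± 1.85 (log2 change 1.82), and at 263 ± 5.11 in Dynll1 against 108 ± 5.2 (1.28). Hells, a chromatin remodeller, was at 653 ± 10.9 in Dynll1 against 105 ± 3.06 (2.63), and Uhrf1, which guides maintenance methylation, fell from 881 ± 26.4 to 96.9 ± 2.07 (-3.17). Zfp57, the imprint-protecting KRAB protein that was left out of the 180 genes, fell from 588 ± 6.09 to 48.5 ± 2.45 TPM in Dynll1 (-3.57). At DIOLs.S day 14, 11 of the 28 were lower and 3 higher than on day 7, against 32.8% and 7.78% of all genes, and Zfp57 rose to 1475 ± 13.5 TPM from 594 ± 65.7 (1.31). In MII DIOL 8 were higher and 9 lower than in DIOLs day 25, against 19.8% and 37.8% of all genes. Between the GV groups, where 2.54% of all genes were higher and 7.42% lower, Ehmt2, a histone H3 methyltransferase, was the only gene of the 28 called, at 4.73 ± 0.43 against 30.3 ± 1.59 (n = 3; -2.45).

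Of the 49 zinc finger genes named Zbtb, Zscan, Zkscan or Znf that meet the same level limit, 24 fell and 1 rose from day 7 to day 14 of DIOLs.S, where 32.8% of all genes fell and 7.78% rose. In the Figla knockout 10 were higher and 2 lower, against 18.6% and 9.52% of all genes, and in MII DIOL 11 were higher and 14 lower than in DIOLs day 25, against 19.8% and 37.8%. Their median log2 change from day 7 to day 14 was -0.94, beside -0.95 for the Zfp genes.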

How the data were processed

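The deposited table holds TPM, and the authors aligned reads with STAR 2.6.0 and counted them with featureCounts 1.6.0 on mm10, per the submitters' processing notes; how TPM was computed from these is not given in the sources used here. Of 71 samples in 34 groups, 68 matched a column by name, 3 in vivo samples labelled P3 did not, and 80 columns of no sample were not used. Of 15163 rows, 22 named as dates and 1 incomplete row were left out. The members and all gene lists were chosen with earlier results of these data known.

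Values were taken as log2(TPM + 1), and genes at 1 TPM or more in 2 libraries were fitted with limma 3.58.1 (trend and robust options) in R 4.3.3. In vitro oocytes (42 libraries) and all other groups (26 libraries) were fitted separately, by group means, with Benjamini-Hochberg adjustment over all genes of a comparison. Zfp genes named were those with the highest means and widest ranges, those called in the largest number of knockouts in 1 direction and, in each comparison, the largest called changes whose libraries did not overlap and whose higher group had a mean of at least 5 TPM. KRAB signatures and fingers were matched in translations of the GENCODE coding sequences, since no protein table was used here. Before use, the fit was run on simulated data. A recovery needed the right direction and limma's adjusted p under 0.05, without the limit on the change, so the full calling rule was not tested. Of 2-fold changes, 73.0% were recovered in the setting of the Kdm1b knockout and 88.0% in that of DIOLs day 15 against day 10. Of 4-fold changes, 87.0% and 95.0% were recovered. Same-numbered libraries were checked for pairing and did not deviate together.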

Additional observations from a re-analysis of the deposited data

How the results depend on the processing

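The alternatives were a pseudocount of 0.1, no filter on low values, rescaling by median ratios, a joint fit of all libraries, a fit without both Sohlh1 knockout libraries, a member limit of 10 TPM (162 genes), a replicate block and leaving out each library in turn. Over 188 changes of named genes, none reversed in 1834 repeats and 71 lost the call, 51 of them on leaving out 1 library. Of the counts of called Zfp genes, 292 stayed within 1.5 times and 31 did not. Rescaling gave 22 calls in Figla (41 as reported), 5 in Ccnk (8), 1 at DIOLs.S day 5 against day 3 (4) and 19 at DIOLs day 10 against day 5 (30). A pseudocount of 0.1 gave 2 in Foxr1, 4 in Kdm1b, 2 in Noto, 1 in Sfr1, 4 in Thap7, 2 at DIOLs day 15 against day 10 and 16 at day 25 against day 15. The joint fit gave 2 in each of Foxr1, Kdm1b, Noto, Sfr1 and Tcf25, and the fit without Sohlh1 gave 1 in Foxr1, Sfr1 and Tcf25, 2 in Kdm1b and Noto, and 4 in Thap7. Leaving out 1 library gave 0 to 1 call in Kdm1b, 0 to 2 in Thap7, 6 to 9 at DIOLs.S day 5 against day 3 and 0 to 2 at DIOLs day 15 against day 10. The cause of these shifts was not tested. Same-numbered libraries correlated by -0.15 to 0.051 in their deviations, so the numbers did not pair them, and the replicate block moved no count by more than 2 (41 to 43 for DIOLs day 25 against incompetent GV) and lost no named call. With the day 7 numbers crossed, a pairing chosen after seeing the data, DIOLs.S day 7 against day 5 had 9 calls.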
